A study of Mus musculus with 6 samples.

Results

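T lymphocyte and natural killer (NK) cell transcripts were followed in RNA-seq of neutrophils sorted from the mouse uterus. Of the 10 genes followed, Cd3d, Cd3e, Cd3g and Cd2 are counted here as T cell genes, although Cd2 is not limited to T cells. Nkg7, Gzma, Gzmb, Prf1, Ifng and Il2rb are shared by cytotoxic T cells and NK cells. All 10 were taken by Ensembl identifier, through the symbols of GENCODE M21, from the 43432 genes in each count table. Each of the 10 had counts in all 6 libraries. The hyperoxia libraries came from mice kept in an environmental chamber at 60% oxygen from postnatal day 18 to postnatal day 28, 10 days in all (3 libraries). Their controls were mice kept in ambient air over the same days, here called normoxia (3 libraries). Mice of both groups were 4 weeks old, of the C57BL/6 strain and of the PRPL line, in which a Cre recombinase placed at the progesterone receptor locus (Pgrcre/+) acts on a floxed gene in the cells that use that locus. Cells that stained for CD45 and CD11b and strongly for Ly6G were sorted from whole uteri taken apart with enzymes, a gate meant for neutrophils and not for lymphocytes.

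T cells recognise antigen through a receptor whose signal is carried into the cell by the CD3 chains, and CD2 is an adhesion receptor that helps them hold on to the cell they inspect. NK cells lack that receptor but kill with the same granule proteins: perforin opens the membrane of the target and granzymes enter to start its death. Both cell types secrete interferon gamma, and both respond to interleukins 2 and 15 through the receptor chain that Il2rb encodes. In tumours these genes are widely used as a measure of lymphocyte infiltration.

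Libraries held 44152840, 61715617 and 44803171 counts in hyperoxia and 44870447, 42479505 and 38683293 counts in normoxia. Summed over the 10 genes there were 326, 822 and 1779 counts in the hyperoxia libraries and 294, 388 and 756 counts in the normoxia libraries. A floor of 3 counts corresponds to between 0.0486 and 0.0776 counts scaled to library size (CPM). Intervals given for counts cover counting error only and take each count as independent. PCR copies are not independent molecules, so the intervals can be too narrow. Neutrophil markers were far more abundant, with a summed level of 122033 to 292915 TPM (counts divided by exon length and scaled to a common total) in hyperoxia and 125546 to 167912 TPM in normoxia. The sum of the 10 lymphocyte genes was 10.1 to 58.3 TPM in hyperoxia and 10.7 to 31.3 TPM in normoxia. In these bulk samples, fewer cells of a type and less RNA per cell cannot be told apart.

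The 3 CD3 genes lie side by side on mouse chromosome 9 in GRCm38. Cd3g (ENSMUSG00000002033, chr9:44969572-44980431) is on the minus strand, Cd3d (ENSMUSG00000032094, chr9:44981786-44987339) on the plus strand and Cd3e (ENSMUSG00000032093, chr9:44998740-45009627) on the minus strand. Cd3g and Cd3d face away from each other with 1354 bases between their annotated ends, Cd3e follows after 11400 bases, and the cluster spans 40056 bases. The other genes lie apart: Cd2 at chr3:101275899-101287939, Nkg7 at chr7:43437073-43438249, Gzma at chr13:113093825-113100981, Gzmb at chr14:56258838-56262260, Prf1 at chr10:61297833-61304680, Ifng at chr10:118441046-118445892 and Il2rb at chr15:78479256-78495271. GENCODE M21 annotates Gm48719 on the opposite strand of Cd3e, Gm48720 on its own strand and Gm49751 over Ifng; none of the 3 had an identifier in the count tables.

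The promoters of the CD3 genes and of Gzma are shown because the CD3 genes form a single cluster and Gzma had the lowest difference of the 10. Each line gives the 250 bases upstream of the RefSeq transcription start in GRCm38.p6, on the strand of the gene. The windows are chr9:44980432-44980681 for Cd3g, chr9:44981536-44981785 for Cd3d, chr9:45009612-45009861 for Cd3e and chr13:113100982-113101231 for Gzma. Capitals mark the E-box letters CACCTG on either strand, the core that E proteins bind.
Cd3g: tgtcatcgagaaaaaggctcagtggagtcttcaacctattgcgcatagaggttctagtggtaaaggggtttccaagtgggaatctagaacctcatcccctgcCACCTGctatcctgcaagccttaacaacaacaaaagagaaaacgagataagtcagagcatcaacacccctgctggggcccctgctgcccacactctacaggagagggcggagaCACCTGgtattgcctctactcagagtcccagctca
Cd3d: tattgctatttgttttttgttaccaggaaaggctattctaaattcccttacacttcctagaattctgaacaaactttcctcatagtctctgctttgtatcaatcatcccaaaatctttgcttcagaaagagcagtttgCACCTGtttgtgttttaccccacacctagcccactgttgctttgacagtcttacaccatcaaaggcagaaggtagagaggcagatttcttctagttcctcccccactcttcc
Cd3e: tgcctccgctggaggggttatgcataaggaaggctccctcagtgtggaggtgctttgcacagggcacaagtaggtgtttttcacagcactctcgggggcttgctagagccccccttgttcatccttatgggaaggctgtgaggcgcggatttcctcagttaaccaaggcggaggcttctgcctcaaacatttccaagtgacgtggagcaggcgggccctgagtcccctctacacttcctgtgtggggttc
Gzma: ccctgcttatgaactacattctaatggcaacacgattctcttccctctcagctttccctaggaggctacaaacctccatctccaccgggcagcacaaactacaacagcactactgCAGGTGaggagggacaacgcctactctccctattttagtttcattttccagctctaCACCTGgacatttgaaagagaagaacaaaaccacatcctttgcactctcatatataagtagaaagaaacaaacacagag
RefSeq windows were found for 8 of the 10 genes. The E-box letters stood 148 and 35 bases upstream of the start of Cd3g, 112 bases upstream of Cd3d, and 135 and 79 bases upstream of Gzma, and were not in the Cd3e window. They were found in 5 of the 8 windows (also in Prf1 and Ifng), against 17.2% of 32851 mouse windows of the same length. Letters of 5 other motifs were also searched on both strands, and no matches of different motifs shared a base. AGGAAG, the core of ETS sites, was in 4 of 8 windows against 29.5% of the 32851, and TGTGGT, the core of RUNX sites, in 4 of 8 against 14.0%. TGANTCA, for AP-1, was in 1 of 8 against 6.75%. AGATAA, for the GATA factors, was in 1 of 8 against 9.99%, and TATAAA, the core of the TATA box, in 1 of 8 against 12.4%. The motifs were chosen with the sequences and results known, and a match describes letters, not a bound site.

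The CD3 chains and Cd2 had more counts in hyperoxia than in normoxia, by 2.07-fold to 5.06-fold in the fit. Cd3g encodes the gamma chain of the CD3 complex. Its level was 0.634, 2.25 and 3.73 CPM in the hyperoxia libraries, against 0.223, 0.282 and 0.776 CPM in the normoxia libraries. Hyperoxia replicates 2 and 3 were above every normoxia library, and hyperoxia replicate 1 was below normoxia replicate 3, so the groups overlapped by 1 pair of libraries. The log2 difference of Cd3g was 2.34 ± 0.69 (SE). Adjusted over all genes, p was 0.230 by the quasi-likelihood F test of edgeR and 0.0179 by the Wald test of DESeq2.

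Cd3e, the epsilon chain, which pairs with the gamma and the delta chain, had 18, 72 and 78 counts in hyperoxia (0.408, 1.17 and 1.74 CPM) against 3, 8 and 18 counts in normoxia (0.0669, 0.188 and 0.465 CPM). With 3 counts, the normoxia replicate 1 value has a 95% Poisson interval of 0.0138 to 0.195 CPM. As with Cd3g, hyperoxia replicate 1 alone was below normoxia replicate 3. The log2 difference was 2.19 ± 0.74 (SE), adjusted p = 0.284 in edgeR and 0.0791 in DESeq2.

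Cd3d, the delta chain, was the most even of the 4 genes, at 0.997, 1.80 and 2.08 CPM in hyperoxia against 0.691, 1.04 and 0.620 CPM in normoxia. Hyperoxia replicate 1 was just below normoxia replicate 2 on this scale. With library sizes scaled by TMM (edgeR's trimmed mean of M values) it was above, at 1.11 CPM against 0.976 CPM in normoxia replicate 2, and the groups did not overlap. The log2 difference was 1.05 ± 0.39 (SE), adjusted p = 0.321 in edgeR and 0.210 in DESeq2. Cd2 stood at 0.498, 0.924 and 2.17 CPM in hyperoxia against 0.134, 0.141 and 0.672 CPM in normoxia. Its groups overlapped where those of Cd3e and Cd3g did, between hyperoxia replicate 1 and normoxia replicate 3. The log2 difference was 1.90 ± 0.77 (SE), adjusted p = 0.356 in edgeR and 0.179 in DESeq2.

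**Figure D1:**
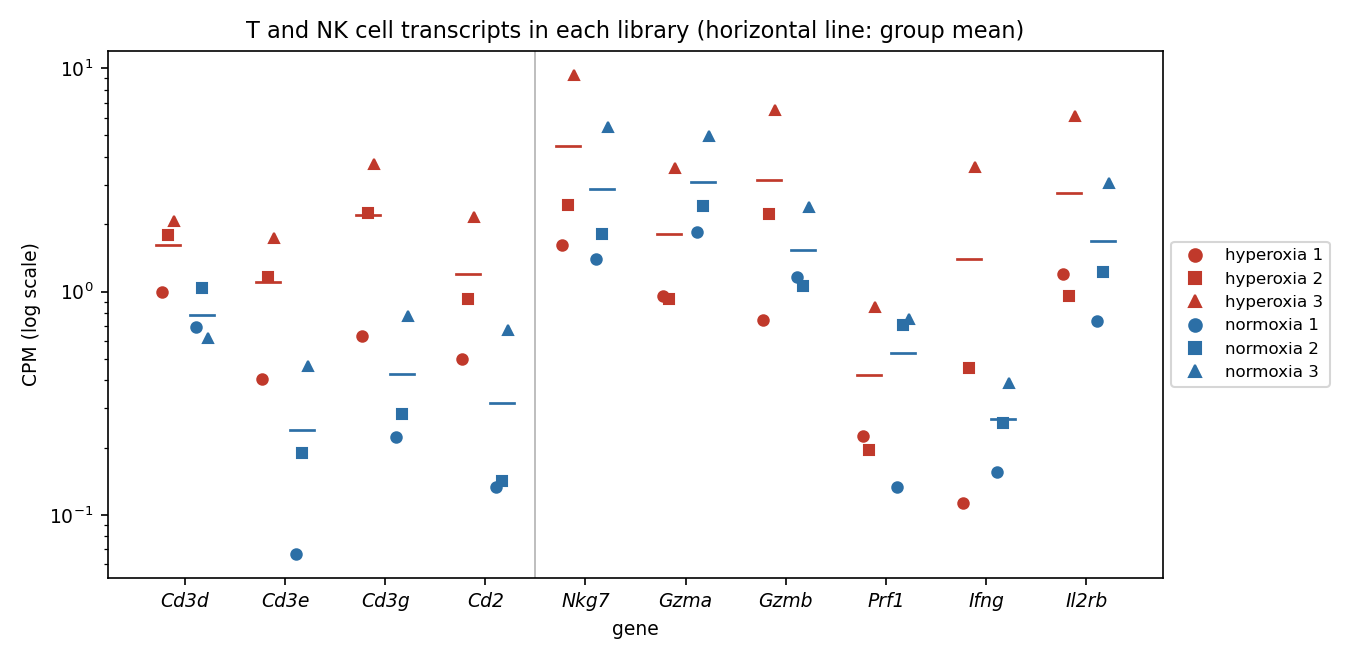
CPM (log scale) of the 10 genes in each library, hyperoxia in red and normoxia in blue, with the marker shape giving the replicate number and a line at the group mean. Left of the vertical line, hyperoxia replicate 1 is the hyperoxia library that falls among the normoxia libraries; right of it, the groups overlap widely and the triangle of hyperoxia replicate 3 stands highest for all but Gzma.

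The 6 cytotoxic and cytokine genes gave no such common direction: 4 averaged higher in hyperoxia and 2 lower, and none passed the threshold in edgeR or DESeq2. Nkg7 encodes a membrane protein of cytotoxic granules. It stood at 1.61, 2.43 and 9.35 CPM in hyperoxia against 1.40, 1.81 and 5.43 CPM in normoxia. Replicate 3 was the highest library of both groups, and the groups overlapped. The log2 difference was 0.60 ± 0.70 (SE), adjusted p = 0.767 in edgeR.

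The differences of the granzymes had opposite signs. Gzma, a granzyme with trypsin-like specificity, stood at 0.951, 0.924 and 3.57 CPM in hyperoxia against 1.85, 2.42 and 4.99 CPM in normoxia. Hyperoxia replicates 1 and 2 were below every normoxia library and hyperoxia replicate 3 was above the first 2 normoxia replicates. Its log2 difference of -0.79 ± 0.59 (SE, adjusted p = 0.612 in edgeR) was the lowest of the 10. Gzmb, the granzyme that activates caspases, stood at 0.747, 2.22 and 6.52 CPM in hyperoxia against 1.16, 1.06 and 2.38 CPM in normoxia. Here hyperoxia held both the lowest and the highest library. The log2 difference was 0.999 ± 0.68 (SE), adjusted p = 0.573 in edgeR.

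Prf1, which encodes perforin, was low throughout, with 10, 12 and 38 counts in hyperoxia (0.226, 0.194 and 0.848 CPM) against 6, 30 and 29 counts in normoxia (0.134, 0.706 and 0.750 CPM). The groups were interleaved, and the log2 difference was -0.32 ± 0.77 (SE, adjusted p = 0.900 in edgeR). Ifng, which encodes interferon gamma, had 5, 28 and 162 counts in hyperoxia (0.113, 0.454 and 3.62 CPM) against 7, 11 and 15 counts in normoxia (0.156, 0.259 and 0.388 CPM). A single library, hyperoxia replicate 3, carried most of these counts, and hyperoxia replicate 1 was the lowest of the 6. The log2 difference of Ifng was 2.32 ± 1.06 (SE), adjusted p = 0.400 in edgeR; it was 1.26 in limma-voom and 1.504 with quality weights, and 0.13 to 2.86 in edgeR when 1 library was left out. Il2rb stood at 1.20, 0.956 and 6.09 CPM in hyperoxia against 0.735, 1.22 and 3.08 CPM in normoxia. Replicates 1 and 2 of both groups lay close together and replicate 3 stood apart in both, with a log2 difference of 0.69 ± 0.76 (SE, adjusted p = 0.749 in edgeR).

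In the edgeR test across 12908 genes, 0 of the 10 genes passed an adjusted p of 0.05 in either direction, and 0% of all genes tested were called. The log2 difference was above 0 for 8 of the 10, against 53.7% of all genes tested. At an unadjusted p under 0.05, the 4 T cell genes were higher and no gene of the set was lower, while 9.1% of all genes tested were higher and 3.91% lower. DESeq2 called 1 of the 10, Cd3g, where it called 3.57% of all genes higher and 0.403% lower. By CPM the groups did not overlap for 0 of the 10 genes, against 17.9% of all genes tested (8.1% higher and 9.81% lower). With TMM scaling they did not overlap for 1 of the 10, Cd3d, against 19.9% (9.57% higher and 10.3% lower). The median log2 difference was 1.02 over the 10 genes, 2.04 over the 4 T cell genes and 0.64 over the 6 others, beside 0.04 over all genes tested. Whether the libraries came from separate animals is not stated in the labels, so the p-values refer to variation among these 6 samples, some of which could be technical.

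One library weighed on most of these values. Hyperoxia replicate 3 was the highest of the 6 libraries for 9 of the 10 genes, the exception being Gzma, which was highest in normoxia replicate 3. Over all genes tested, that library was the highest for 27.5%, and for 40.1% of the 4332 genes whose mean CPM lay within the range of the 10. Normoxia replicate 3 was in turn the highest normoxia library for 9 of the 10, the exception being Cd3d, against 31% of all genes. Normoxia replicate 1, which had the fewest genes with a count (17437), was the lowest of the 6 libraries for 6 of the 10. The share of all genes for which it was lowest was not computed.

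Without hyperoxia replicate 3, the T cell genes kept their direction in edgeR, with log2 differences of 0.89 for Cd3d, 1.76 for Cd3e, 1.78 for Cd3g and 1.22 for Cd2. The differences of the T cell genes and of the 6 others were all lower than with all libraries. Among the 6, Nkg7 came to -0.46, Gzma to -1.65, Gzmb to -0.02, Prf1 to -1.23, Ifng to 0.13 and Il2rb to -0.55. The median of the 6 was -0.50 without that library, and the sign turned from above to below 0 for Nkg7, Gzmb and Il2rb, as it did for 7.28% of all genes tested. In DESeq2 without that library, Gzma was called lower in hyperoxia (log2 -1.63, adjusted p = 0.0475), as were 1.34% of all genes, and Cd3g had an adjusted p of 0.180. Leaving out other libraries also moved the DESeq2 calls: without hyperoxia replicate 1 it called Cd3e, Cd3g and Ifng higher, with 6.19% of all genes, and without normoxia replicate 3 it called Cd2, Cd3e and Cd3g higher, with 3.05% of all genes. Over the 6 fits that left out 1 library each, the log2 difference ranged from 0.89 to 1.29 for Cd3d, 1.76 to 3.14 for Cd3e, 1.78 to 3.12 for Cd3g, 1.22 to 3.11 for Cd2 and -1.65 to -0.21 for Gzma.

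**Figure D2:**
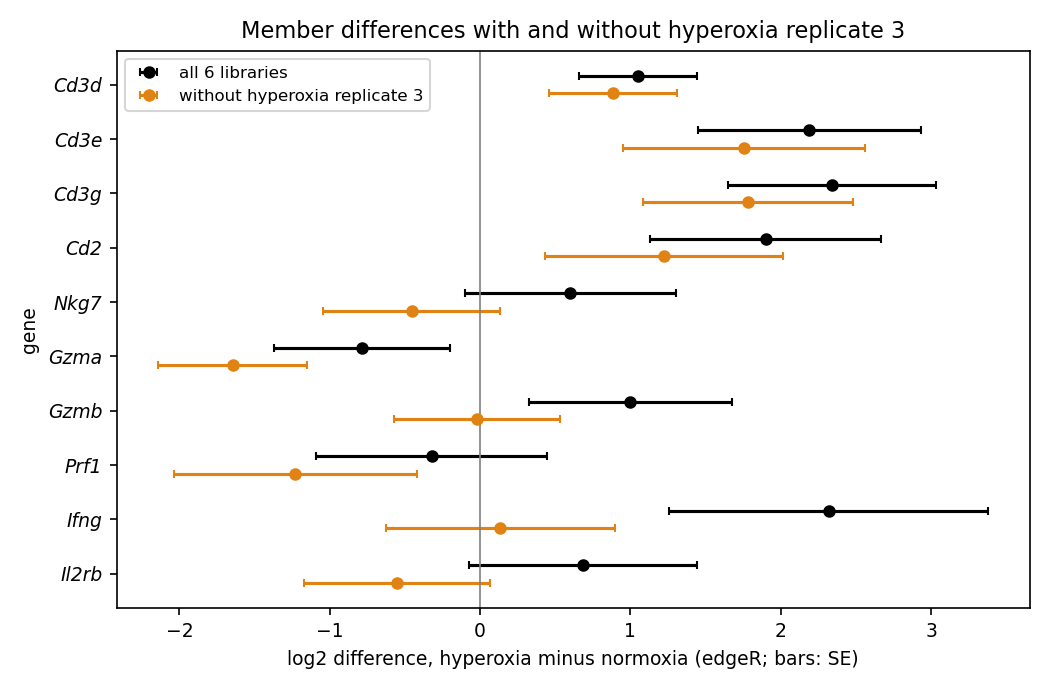
Log2 difference of each gene, hyperoxia minus normoxia, from edgeR, with all 6 libraries (black) and without hyperoxia replicate 3 (orange); bars are standard errors. The CD3 chains and Cd2 lie right of 0 in both fits, while Nkg7, Gzmb and Il2rb cross from right to left of 0 when the library is left out.

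The genes were also summed by role in each library. The 4 T cell genes summed to 2.38, 4.45 and 8.60 TPM in hyperoxia against 1.15, 1.72 and 2.26 TPM in normoxia, and these sums did not overlap between the groups, although every one of the 4 genes did by itself. In CPM the sums were 2.54, 6.14 and 9.71 in hyperoxia against 1.11, 1.65 and 2.53 in normoxia, so that hyperoxia replicate 1 and normoxia replicate 3 were almost equal. The 6 cytotoxic and cytokine genes summed to 7.76, 10.3 and 49.7 TPM in hyperoxia against 9.57, 12.9 and 29.0 TPM in normoxia. Here replicate 3 of both groups stood above the 4 other libraries, and hyperoxia replicate 1 was the lowest. The sum of the T cell genes divided by that of the others was 0.307, 0.433 and 0.173 in hyperoxia against 0.120, 0.133 and 0.0778 in normoxia. The roles were split with the values known, so these sums describe the libraries and carry no test.

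**Figure D3:**
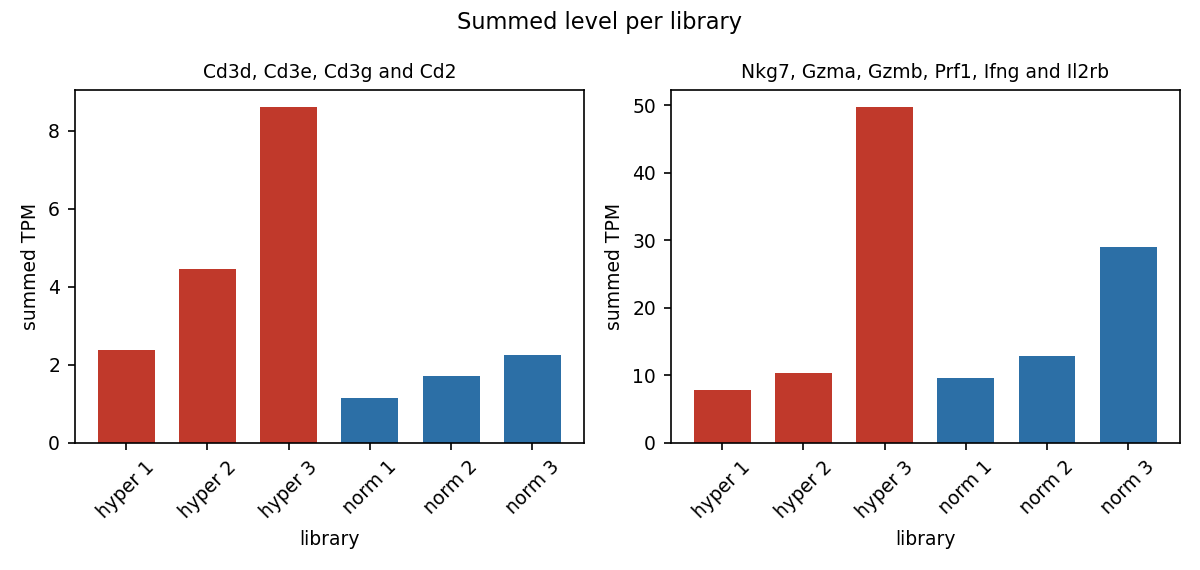
Summed TPM per library of the 4 T cell genes (left) and of the 6 cytotoxic and cytokine genes (right), hyperoxia in red and normoxia in blue, 1 bar per library. On the left the hyperoxia libraries, at 2.38 to 8.60, all exceed the normoxia libraries, at 1.15 to 2.26; on the right replicate 3 of each group is the tall bar.

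A ratio of reads within a library does not depend on its depth or scaling. For each Gzma read there were 0.667, 2.44 and 1.04 Cd3g reads in the hyperoxia libraries against 0.120, 0.117 and 0.155 in the normoxia libraries. The lowest hyperoxia library was well above the highest normoxia library. Nkg7 gave 1.69, 2.63 and 2.62 reads per Gzma read in hyperoxia against 0.759, 0.748 and 1.09 in normoxia, and Il2rb gave 1.26, 1.04 and 1.71 in hyperoxia against 0.398, 0.505 and 0.617 in normoxia. Both genes showed the same separation. Read in this way, 8 of the 9 other genes were higher in hyperoxia with groups that did not overlap, the exception being Prf1, against 16.2% of 12907 genes. Gzma was taken as the denominator because its difference was the lowest, so part of that count follows from the choice. The ratio of Cd3g to Gzma sets the highest difference of the 10 against the lowest.

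Per Cd3g read, 5 of the 9 other genes (Nkg7, Gzma, Gzmb, Prf1 and Il2rb) were lower in hyperoxia with groups that did not overlap, against 41% of all genes. Cd3g had the highest difference of the set in edgeR, so part of that count follows from the choice of denominator. Among the pairs that set a T cell gene against a cytotoxic or cytokine gene, the ratio did not overlap between groups for 16 of 24. Over all genes, reads per read of a T cell gene were lower in hyperoxia without overlap for 29.2% (per Cd2 read) to 49.8% (per Cd3d read), and higher for 0.116% (per Cd3e read) to 1.12% (per Cd3d read). Reads per read of a cytotoxic or cytokine gene were higher without overlap for 0.108% (per Ifng read) to 16.2% (per Gzma read) of all genes, and lower for 0.0775% (per Gzma read) to 1.35% (per Gzmb read). Among pairs of T cell genes the ratio did not overlap for 0 of 6. Among pairs of cytotoxic and cytokine genes it did not for 4 of 15, each with Gzma on one side and Nkg7, Gzmb, Ifng or Il2rb on the other.

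**Figure D4:**
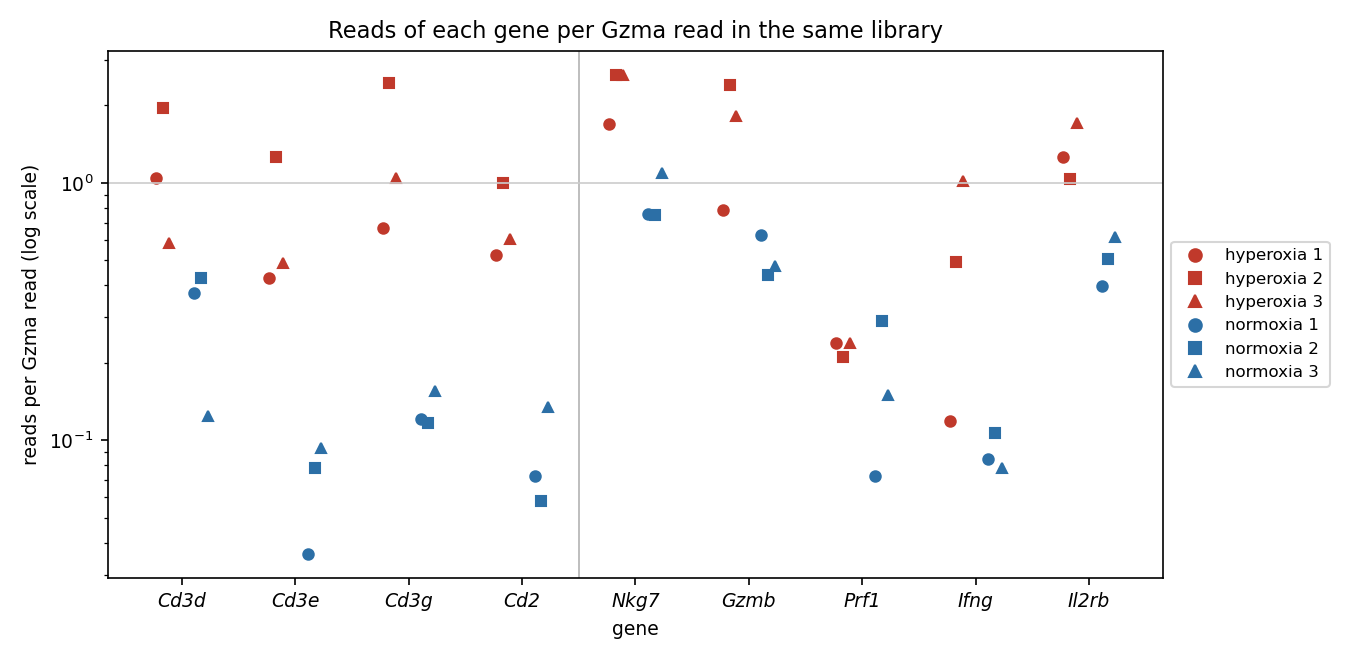
Reads of each of the 9 other genes per Gzma read in the same library (log scale), hyperoxia in red and normoxia in blue, with the marker shape giving the replicate. All genes but Prf1 show 3 red points above 3 blue points, with Cd3g at 0.667 to 2.44 against 0.117 to 0.155.

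Levels between genes were compared in TPM. Nkg7 was the highest of the 10, at 10.2 ± 10.4 TPM in hyperoxia and 6.68 ± 5.02 TPM in normoxia (SD, n = 3 each). Next came Gzma, at 3.78 ± 3.41 TPM in hyperoxia and 6.52 ± 3.42 TPM in normoxia, and Gzmb, at 4.58 ± 4.66 TPM in hyperoxia and 2.26 ± 1.04 TPM in normoxia. The remaining order, by the mean of 6 libraries, was Ifng (1.37 TPM), Cd3d (1.36), Il2rb (1.10), Cd2 (0.900), Cd3g (0.825), Prf1 (0.392) and Cd3e (0.337). The place of Ifng rests on hyperoxia replicate 3, at 6.07 TPM; in normoxia it averaged 0.440 ± 0.186 TPM, below Cd3d and Il2rb (0.830 ± 0.597 TPM, SD, n = 3 each). Neighbours in this order differed by less than their spread between libraries. Nkg7 lay above 70.6% of all genes tested and Cd3e above 15.2%. Cd3d was above Cd3g and Cd3e in each of the 6 libraries. The margin over Cd3g was least in hyperoxia replicate 3, at 2.49 against 2.48 TPM, whereas in normoxia Cd3d averaged 0.924 ± 0.287 TPM where Cd3g averaged 0.277 ± 0.192 TPM (SD, n = 3 each).

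Across the 6 libraries, Cd3e, Cd3g and Cd2 followed one another, with Pearson r of log2 CPM between 0.957 and 0.978. Cd3d followed them less closely, at 0.660 to 0.796, and Gzma had an r of -0.39 with Cd3d and of -0.02 with Cd3g. Gzmb and Ifng had an r of 0.956, and Nkg7 and Il2rb of 0.957. These values describe 6 points that include the differences of depth and group between libraries. Among 11549 other tested genes with a standard symbol, the 8 whose pattern was most like the mean of the 10 were Mesd, Rack1, Nme6, Fam92a, Ppie, Zfp560, Poglut1 and Cdkn1c, with r from 0.984 to 0.996 over the 6 libraries. Rack1, a scaffold protein of the ribosome, stood at 30.5, 41.4 and 57.2 CPM in hyperoxia against 30.2, 36.5 and 43.1 CPM in normoxia. The log2 differences of these 8 ran from 0.23 ± 0.23 (SE) for Rack1 to 1.03 ± 0.60 (SE) for Fam92a. Nkg7 was the closest of the 10 to their own mean, with an r of 0.957, and Gzma the farthest, with 0.462. Each of the 10 is part of that mean, so these r values are not comparable with those of the 8 genes.

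Other genes of the T cell receptor complex and its signalling had mostly positive differences, 16 of the 18 tested of 22 listed. At an unadjusted p under 0.05 in edgeR, 7 were higher and 0 lower, against 9.1% and 3.91% of all genes tested. At the adjusted threshold 0 passed in edgeR, and their median log2 difference was 1.58. Cd247, the zeta chain of the same receptor complex, had 17, 26 and 70 counts in hyperoxia against 2, 2 and 6 counts in normoxia. Every hyperoxia library was above every normoxia library, and the log2 difference was 3.22 ± 0.80 (SE), adjusted p = 0.168 in edgeR and 0.0119 in DESeq2, the one DESeq2 call in this list. However, Cd247 passed the filter on low counts only through its hyperoxia libraries, the group where it was high. Its difference and its call are therefore partly selected and give no separate support. Trbc2, a constant segment of the T cell receptor beta chain whose sequence resembles that of Trbc1, had 6, 48 and 129 counts in hyperoxia against 4, 3 and 19 counts in normoxia (log2 2.49 ± 1.08, SE, adjusted p = 0.379 in edgeR). Icos, a costimulatory receptor, had 8, 50 and 100 counts in hyperoxia against 5, 14 and 7 in normoxia (log2 2.33 ± 0.83, SE, adjusted p = 0.302 in edgeR).

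For coreceptors, counts were few. Cd8b1 had 8, 69 and 90 counts in hyperoxia against 5, 11 and 16 in normoxia (log2 2.04 ± 0.81, SE, adjusted p = 0.348 in edgeR). Cd8a did not pass the filter on low counts, with 0, 4 and 71 counts in hyperoxia against 0, 3 and 11 in normoxia, and Cd4, which passed it, had 9, 15 and 40 counts in hyperoxia against 1, 15 and 2 in normoxia. Hyperoxia replicate 3 was again the highest library for these genes. Lcp2, an adaptor that myeloid cells also use, had the highest level of the list, at 425, 358 and 397 CPM in hyperoxia against 494, 503 and 430 CPM in normoxia, with every hyperoxia library below every normoxia library by CPM but not with TMM scaling, and a log2 difference of -0.25 ± 0.22 (SE, adjusted p = 0.674 in edgeR).

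Receptors and factors of NK and innate lymphoid cells had a median log2 difference of 0.66 over 13 tested of 21 listed genes. At an unadjusted p under 0.05 there was 1 higher and 0 lower, near the shares of all genes tested (9.1% and 3.91%). That gene was Klrk1, which encodes the activating receptor NKG2D and is used by NK cells and CD8 T cells. It stood at 1.68, 2.58 and 4.00 CPM in hyperoxia against 0.958, 0.824 and 1.22 CPM in normoxia, with groups that did not overlap, and its log2 difference was 1.44 ± 0.38 (SE), adjusted p = 0.183 in edgeR and 0.0194 in DESeq2. Ncr1, the NK cell receptor NKp46, had 12, 48 and 55 counts in hyperoxia against 8, 28 and 69 counts in normoxia. Its highest library was normoxia replicate 3, as for Gzma, and its log2 difference was -0.21. Klrd1, the CD94 partner of NKG2 receptors, had a log2 difference of 1.36 ± 0.71 (SE, adjusted p = 0.457 in edgeR).

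Of 18 listed cytotoxic granule genes other than the 10, 12 were tested, with a median log2 difference of 0.61. At an unadjusted p under 0.05, 2 were higher and 0 lower, against 9.1% and 3.91% of all genes tested. DESeq2 called both, where it called 3.57% of all genes higher. Ctsc, cathepsin C, which activates granule proteases in lymphocytes and in neutrophils, stood at 246, 759 and 317 CPM in hyperoxia against 152, 139 and 133 CPM in normoxia. Its highest library was hyperoxia replicate 2, not hyperoxia replicate 3 as for most of the 10, and its log2 difference was 1.63 ± 0.39 (SE), adjusted p = 0.153 in edgeR and 0.00200 in DESeq2. Serpinb9, an inhibitor of granzyme B, stood at 1.18, 2.17 and 3.26 CPM in hyperoxia against 0.379, 0.777 and 0.853 CPM in normoxia (log2 1.71 ± 0.46, SE, adjusted p = 0.189 in edgeR and 0.0186 in DESeq2). Srgn, the proteoglycan that packs granule proteins in many blood cells, was the most abundant of the list, at 10046, 6562 and 11297 CPM in hyperoxia against 9339, 9848 and 11443 CPM in normoxia.

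The partners of Cd2 and Il2rb differed from one another. Cd48, the ligand of CD2 in the mouse, stood at 14.5, 34.2 and 29.3 CPM in hyperoxia against 7.80, 11.2 and 8.30 CPM in normoxia. The groups did not overlap, and the log2 difference was 1.51 ± 0.29 (SE), adjusted p = 0.112 in edgeR and 0.000371 in DESeq2. Il2rg, the gamma chain that pairs with Il2rb, stood at 30.1, 45.3 and 54.9 CPM in hyperoxia against 28.7, 34.2 and 32.1 CPM in normoxia (log2 0.45 ± 0.21, SE, adjusted p = 0.403 in edgeR). Il15, a cytokine that signals through Il2rb, stood at 208, 99.5 and 182 CPM in hyperoxia against 202, 186 and 178 CPM in normoxia (log2 -0.18 ± 0.31, SE, adjusted p = 0.860 in edgeR). Of 11 tested genes of the interleukin 2 and 15 pathway, the median log2 difference was -0.03. At an unadjusted p under 0.05, against 9.1% higher and 3.91% lower over all genes tested, there were 0 higher and 2 lower. The 2 were the cytokine signalling inhibitors Socs1 and Socs3, and DESeq2 called Socs1 lower, with a log2 difference of -1.21 ± 0.22 (SE) in edgeR.

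Genes upstream and downstream of interferon gamma had a median log2 difference of 0.18 over 12 tested genes. At an unadjusted p under 0.05, 1 was higher and 1 lower, near the shares of all genes tested (9.1% and 3.91%). Ciita, the activator of MHC class II genes, was higher in DESeq2, at 0.747, 1.91 and 1.74 CPM in hyperoxia against 0.178, 0.471 and 0.336 CPM in normoxia (log2 2.16 ± 0.51, SE, adjusted p = 0.153 in edgeR and 0.00648 in DESeq2). Irf1, a transcription factor induced by interferon gamma, stood at 572, 657 and 761 CPM in hyperoxia against 897, 887 and 1088 CPM in normoxia, with every hyperoxia library below every normoxia library (log2 -0.52 ± 0.21, SE, adjusted p = 0.354 in edgeR). Gbp2, an interferon-induced GTPase, gave 0.37 ± 0.40 (SE, log2 difference).

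Chemokines and receptors of T cells had a median log2 difference of 1.06 over 10 tested genes. At an unadjusted p under 0.05, 3 were higher and 0 lower, against 9.1% and 3.91% of all genes tested. DESeq2 called 2 of the 3, Cxcr6 among them, where it called 3.57% of all genes higher. Cxcr6, a homing receptor of tissue T cells and some NK cells, stood at 0.883, 3.21 and 5.29 CPM in hyperoxia against 0.334, 0.541 and 0.672 CPM in normoxia, with groups that did not overlap (log2 2.57 ± 0.60, SE, adjusted p = 0.150 in edgeR and 0.00103 in DESeq2). Ccl3 and Ccl4, chemokines that neutrophils also make, were far more abundant and gave log2 differences of 0.03 ± 0.61 and -0.18 ± 0.39 (SE).

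**Figure D5:**
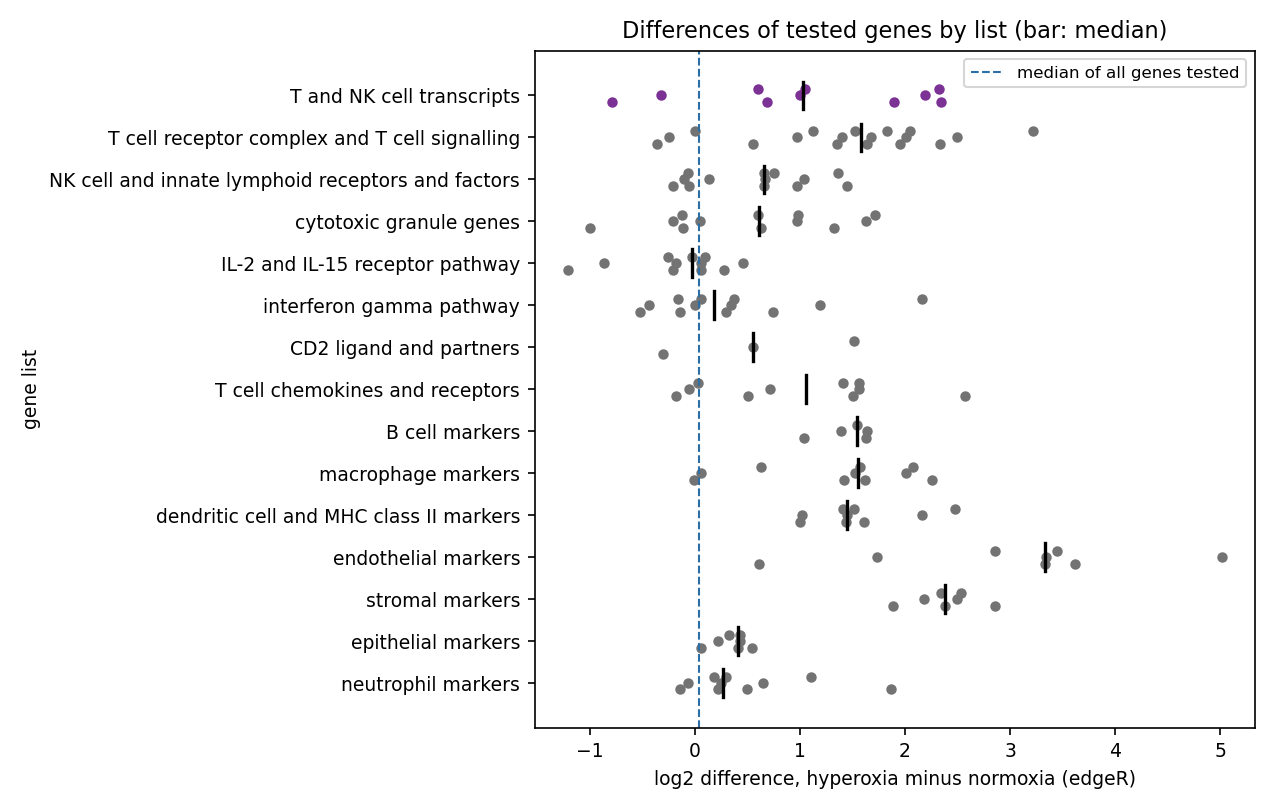
Log2 difference, hyperoxia minus normoxia, from edgeR for every tested gene of each list (points), with the median of the list as a bar and the median of all genes tested as a dashed line at 0.04. The 10 T and NK cell transcripts run from -0.79 to 2.34, with a median of 1.02. The medians of the endothelial, stromal, macrophage, dendritic cell and B cell lists lie further right. Those of the T cell receptor list (1.58) and the T cell chemokine list (1.06) do too. The 4 T cell genes by themselves had a median of 2.04, above the B cell, macrophage and dendritic cell medians and below the endothelial and stromal medians.

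Marker lists of several other cell types also had positive median differences. B cell markers summed to 2.42 to 9.41 TPM in hyperoxia against 1.84 to 3.01 TPM in normoxia, with a median log2 difference of 1.54, and 4 of 5 tested were higher at an unadjusted p under 0.05 in edgeR. Over all genes tested, 9.1% were higher at that p. Cd79a, a chain of the B cell receptor, had 25, 178 and 98 counts in hyperoxia against 22, 33 and 25 in normoxia, while Pax5 was at 0 in 4 libraries. Dendritic cell and MHC class II markers summed to 660 to 2380 TPM in hyperoxia against 466 to 578 TPM in normoxia (6 of 9 called by DESeq2), and macrophage markers to 1244 to 2221 TPM in hyperoxia against 1193 to 1242 TPM in normoxia (5 of 10). Endothelial markers summed to 13.2 to 42.4 TPM in hyperoxia against 3.44 to 7.27 TPM in normoxia (6 of 8), and stromal markers to 9.58 to 83.0 TPM in hyperoxia against 6.28 to 18.3 TPM in normoxia (6 of 7). DESeq2 called 3.57% of all genes tested higher, and edgeR called 0 genes in each of these lists. Of the endothelial genes that DESeq2 called, Cdh5 and Tek had 0 counts in some libraries. Mast cell and basophil markers summed to at most 3.32 TPM, with Ms4a2 at 0 in every library. Neutrophil markers had a median log2 difference of 0.27 with 0 of 10 called by DESeq2, and epithelial markers of 0.41 with 0 of 7. The neutrophil sum was lowest in hyperoxia replicate 3 (122033 TPM), the library where the 10 lymphocyte genes had their highest sum (58.3 TPM). Normoxia replicate 2 had a close neutrophil sum (125546 TPM) but 14.6 TPM for the 10 genes. Hyperoxia replicate 2 had the highest neutrophil sum (292915 TPM) and 14.7 TPM for the 10 genes. The part of these other cells in the differences of the 10 genes was not tested.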

How the data were processed

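For each of 6 libraries of Ly6G-high cells the authors deposited raw gene counts, whole numbers with no normalization, prepared with an Ovation/NexteraXT kit according to the labels. STAR 2.4.2a, DESeq2 1.16.1 and the build GRCm38 are named in the submitters' processing notes. How reads were counted, with which strand setting and annotation, is not given in the sources used here, so reads of overlapping genes on opposite strands cannot be told apart. Of 43432 identifiers, 42548 matched GENCODE M21 and 884, holding 0.166% to 0.250% of counts, did not.

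Groups follow the housing label. Libraries differed pairwise by more than sampling noise (chi-square per degree of freedom 29.8 to 726). edgeR 4.0.16 in R 4.3.3 (filterByExpr, TMM, robust quasi-likelihood F test, two-sided, Benjamini-Hochberg over all genes tested) compared 12908 of 23147 genes with a count; all 10 members passed that filter. The biological coefficient of variation came to 36.3%, and log2 differences had a median standard error, derived from F, of 0.34. CPM used library totals, TPM the M21 exon length; r used log2 CPM with a prior count of 2. The procedure was also run on simulated counts with known changes, drawn independently for each gene and library. That simulation held no shift of a whole library, so it does not show how hyperoxia replicate 3 affects the 10 genes.

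Besides the 10 genes, the text names up to 3 genes of each related list with the lowest p and up to 2 with the highest level, and the 8 genes most like the members' mean; other genes were named after their values were seen. The members, lists and tests were chosen with earlier results of these data known. Trdc, Gnly and Cd58 had no matching identifier. A gene that met the naming rule and an allele of the line are not reported here. Alternatives were DESeq2 1.42.0, limma-voom (limma 3.58.1) with and without quality weights, other scalings, filters and a threshold of 0.1, and leaving out each library. Promoters are RefSeq windows of GRCm38.p6.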

Additional observations from a re-analysis of the deposited data

How the results depend on the processing

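No paired analysis was possible because the labels number no replicates, and the numbers used here follow the order of deposition. Over all genes, edgeR's 0 higher and 0 lower calls became 461 and 52 with DESeq2, 35 and 1 with limma-voom quality weights, 205 and 9 without a filter on low counts, 28 and 2 at an adjusted p of 0.1, and 0 to 164 and 0 to 12 when 1 library was left out, the highest counts coming without hyperoxia replicate 1; the cause was not tested. Of the members, edgeR called 0 in each of these fits and DESeq2 called 1, Cd3g. DESeq2 with 1 library left out, an alternative added after the data were seen, called 195 to 836 genes higher, 6 to 276 lower and 0 to 3 members: Cd3e, Cd3g and Ifng without hyperoxia replicate 1, Cd2, Cd3e and Cd3g without normoxia replicate 3, Gzma without hyperoxia replicate 3 (Cd3e, Prf1 and Ifng had no adjusted p there), and 0 without hyperoxia replicate 2, normoxia replicate 1 or normoxia replicate 2, where the adjusted p of Cd3g was 0.0633, 0.204 and 0.236. Of 130 alternative values of the members' log2 differences in the planned fits, 124 kept direction and call and 5 changed sign, all with a library left out. Without hyperoxia replicate 3 these were Nkg7 (-0.46, DESeq2 -0.44), Gzmb (-0.019, DESeq2 -0.0072) and Il2rb (-0.55, DESeq2 -0.53), whose highest values, without normoxia replicate 3, were 1.48 (DESeq2 1.42), 1.49 (1.43) and 1.504 (1.44). Prf1 ranged from -1.23 (DESeq2 -1.21) without hyperoxia replicate 3 to 0.054 (DESeq2 0.017) without hyperoxia replicate 2 and 0.080 (DESeq2 0.012) without normoxia replicate 3. Among the values that kept direction and call, Ifng moved most between tools, at 1.26 in limma-voom and 1.504 with quality weights against 2.32 in edgeR, and at 0.13 without hyperoxia replicate 3 and 2.86 without hyperoxia replicate 1. Members with groups that do not overlap numbered 1 with TMM scaling, also added later, against 0 by library size. Depth limits Cd3e, Prf1, Ifng and Cd2 most, whose lowest libraries held 3 to 6 counts.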
